A study of Rattus norvegicus with 9 samples.

Results

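The left ventricle of rats given angiotensin II (Ang II) together with sodium butyrate (NaBu) was compared with that of rats given saline. The 3 NaBu libraries, which carry the numbers 2, 4 and 6 in their table, and the 3 saline libraries, numbered 1 to 3, are 6 of the 9 RNA-seq libraries of the study. The other 3 are from rats given Ang II alone; they share in the estimate of the spread, and their values stand beside those of the genes named here. All groups were Sprague-Dawley rats of 8 weeks at the start, sampled after 28 days of treatment. The labels give no dose or route and no genetic change, and do not say whether each library is from its own rat; p-values here therefore reflect the scatter of these libraries, which may be technical. Rats in the NaBu group received both agents, and a group given NaBu without Ang II was not analysed here, so the contrast with saline holds the difference of both together.

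Ang II is the peptide of the renin-angiotensin system that constricts vessels, raises blood pressure and acts on cardiomyocytes and fibroblasts through the AT1 receptor. Butyrate is a short-chain fatty acid made by gut bacteria. Cells take it up through monocarboxylate transporters and oxidise it in mitochondria. It inhibits many, not all, of the class I and class II histone deacetylases (HDACs), enzymes that remove acetyl groups from histone tails. The adult ventricle makes most of its ATP by oxidising fatty acids, and pyruvate, ketone bodies and branched-chain amino acids are its other fuels, all of which enter the citrate cycle in mitochondria.

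Of 15467 genes tested, 465 rose with Ang II and NaBu against saline (3.01%) and 317 fell (2.05%), by edgeR's quasi-likelihood test at a Benjamini-Hochberg adjusted p under 0.05. The median fold was 1.49 among rises and 1.56 among falls, and 14 rises and 53 falls reached 2-fold. The smallest adjusted p was 0.00103, and 3807 genes (24.6%) had an unadjusted p under 0.05. In all 782 called genes (5.06%) the NaBu and saline libraries did not overlap, against 28.6% of all genes tested. Rises were 59.5% of calls; this share was 49.2% with upper-quartile scaling, 69.8% with scaling by total count and 25.8% when ribosomal RNA genes were removed before that scaling, which moved the median of all genes from -0.05 to -0.20 on the log2 scale. DESeq2 called more, 1240 rises and 767 falls of the same 15467 genes. Counts of list members in DESeq2 are to be read beside these, and counts at an unadjusted p under 0.05 beside the 24.6%. Values of Ang II alone come from the same fit, and both contrasts with saline share the saline libraries.

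The calls rested on particular libraries. Without NaBu replicate 2 there were 5 rises and 4 falls, and without NaBu replicate 6 there were 3 and 3. A fit of the saline and NaBu libraries by themselves, which estimates the spread from 6 libraries, gave 5 and 4. No called gene changed sign in the fits that left out a library or used other libraries. In every called gene the NaBu and saline libraries did not overlap, so leaving libraries out could hardly change a sign. The kept signs are therefore no measure of stability. The calls of Crkl, Macrod2, Adam33 and Flrt1 held in each of the 9 fits that left out 1 library.

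**Figure D1:**
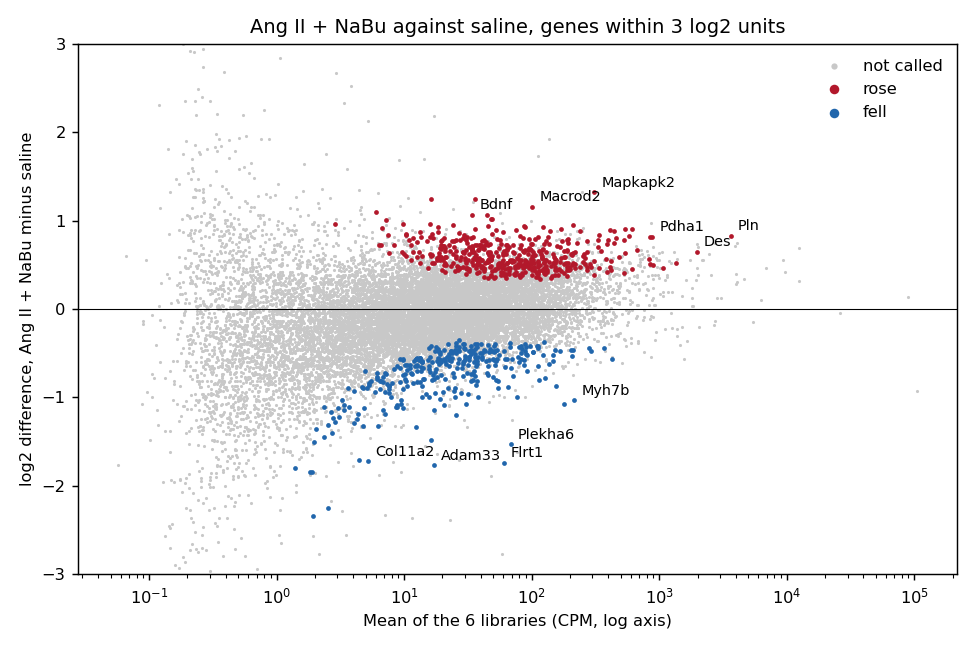
Each point is a gene tested: the horizontal axis is the mean of the 3 saline and 3 NaBu libraries in library-scaled counts (CPM, log axis), the vertical axis the log2 difference of Ang II with NaBu minus saline. The 465 genes that rose are red and the 317 that fell are blue; genes beyond 3 log2 units, Crkl and Bmp10 among the called ones, lie outside the plot.

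Saline replicate 2 stood apart from the other saline libraries. Its summed level of the 11 atrial marker genes tested was 6146 CPM, against 217 and 392 CPM in saline replicates 1 and 3 and 307, 222 and 199.9 CPM in the NaBu libraries. Each of the 11 was highest in saline replicate 2. Ventricular markers, a defining check of the labelled tissue, summed to 56648, 44015 and 64532 CPM in the saline libraries and to 65166, 56906 and 64013 CPM in the NaBu libraries, lowest in saline replicate 2. Without that library 293 genes rose (1.86%) and 141 fell (0.897%), of which 248 and 115 were among the calls with it. Values without saline replicate 2 are given beside the results that depend on it. Library totals ranged from 29284780 to 49865446 estimated counts, and ribosomal RNA took 7.99% to 18.8% of them, least in NaBu replicate 6 and most in saline replicate 3; the part of either in the calls was not tested.

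The largest rise was of Crkl, an adaptor protein that couples tyrosine kinases to small GTPases. It was listed at 0 in the 3 saline and the 3 Ang II libraries and at 653, 698 and 883 estimated counts in NaBu replicates 2, 4 and 6. Against a floor of 12 estimated counts per library, worth 3 fragments, it was at least 38.7-fold higher (adjusted p = 0.00103 with edgeR). All of its counts came from 1 transcript. Each group was deposited in a table of its own, and 86 transcripts were at 0 in every saline library with at least 12 counts in every NaBu library, of which 16 were at 0 in the Ang II libraries too, so the group and the making of its table cannot be told apart for a gene like this.

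Mapkapk2, which encodes MK2, the kinase activated by p38 MAP kinase, had the largest difference among called rises with counts in every library. In CPM, estimated counts scaled to a common library total by TMM, it stood at 160.5, 130.3 and 239 in saline replicates 1, 2 and 3, at 173, 200.1 and 175 in the Ang II libraries and at 458, 415 and 446 in NaBu replicates 2, 4 and 6. All NaBu libraries lay above the other 6, and the log2 difference from saline was 1.32 (SE 0.191, adjusted p = 0.0139 with edgeR). It was 1.16 without saline replicate 2 and was called in 16 of 20 alternative fits, not without NaBu replicate 2 or 6. The list of 19 p38 pathway genes tested also holds Crkl, and none of the other 17 was called. Of the 19, 11 averaged higher, and the median was 0.12 (-0.03 with ribosomal RNA genes removed and total-count scaling). The lowest 2 members with a mean of 1 CPM or more were the p38 isoforms Mapk12 (-0.36) and Mapk11 (-0.23, and -0.52 without saline replicate 2). Both overlapped with saline, and Mapk11 was at a mean of 1.83 CPM in saline. The other p38 isoforms are not reported here.

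Macrod2, a hydrolase that removes mono-ADP-ribose from proteins, had the smallest adjusted p among genes detected in every library, together with Adam33. Its level was 59.3, 57.8 and 70.3 CPM in the saline libraries, a mean of 94.5 ± 8.02 CPM (SD, n = 3) with Ang II alone and 133, 150.2 and 136 CPM with NaBu, and the 3 groups did not overlap. The log2 difference from saline was 1.16 (SE 0.111, adjusted p = 0.00504 with edgeR), and it was called in 20 of 20 alternative fits. Ang II alone stood between the groups, at 0.60 above saline (SE 0.111, adjusted p = 0.443 with edgeR). Adjusted p-values are set within each contrast, so those of different contrasts cannot be compared as measures of evidence.

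Of the other large rises, Hmga1, an AT-hook protein that bends DNA in chromatin, went from 3.96, 3.19 and 4.24 CPM in saline to 8.59, 6.99 and 8.87 CPM with NaBu (1.10, SE 0.194). Bdnf, a neurotrophin, was at 22.4, 14.7 and 29 CPM in saline and 44.4, 42.2 and 51.4 CPM with NaBu (1.07, SE 0.236). With Ang II alone Hmga1 and Bdnf overlapped with saline, at means of 4.45 and 25.3 CPM against 3.8 and 22 CPM. Apool, a subunit of the complex that shapes mitochondrial cristae, and Tsfm, the mitochondrial elongation factor Ts, rose by 1.02 and 0.96. Frat1, an inhibitor of the kinase GSK3, rose by 1.01, Tmem69 by 1.07, Scrn3 by 1.02, and Emc6, a subunit of the complex that inserts proteins into the endoplasmic reticulum membrane, by 0.96. Adjusted p-values of these 8 genes lay between 0.0119 and 0.0493 in edgeR. Without saline replicate 2 the call of Emc6 was lost (0.79, adjusted p = 0.0979) and the other 7 were called. None of the 8 was called without NaBu replicate 2 or without NaBu replicate 6.

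Promoters were read for 374 of the rises, 236 of the falls and 11732 of the genes tested, as the 250 bases upstream of the start site in RefSeq's GRCr8 table. The cAMP response element TGACGTCA, which reads alike on both strands, was in 4.81% of the promoters of rises (18), 1.69% of those of falls (4) and 2.79% of all. It was singled out of 7 motifs after the shares were seen, and a match describes letters, not a bound site. Shares for the E-box CACGTG were 8.02%, 6.78% and 7.85%, for the ETS motif ACTTCCGG 6.68%, 8.90% and 6.23%, for the NRF1 motif 2.67%, 1.27% and 1.55%, and for the oestrogen-related receptor motif AAGGTCA 1.34%, 2.97% and 2.54%, with both strands searched. Crkl and Mrrf, a mitochondrial ribosome recycling factor that rose by 0.49, are shown as rises that hold the element, in capitals, and Mapkapk2 and Flrt1 as a large rise and a large fall among called genes with counts in every library, neither of which holds it. Each is written 5′ to 3′ on the strand of its gene, at chr11:97067458-97067707 (minus strand) for Crkl, chr3:39884399-39884648 (plus) for Mrrf, chr13:45112327-45112576 (minus) for Mapkapk2 and chr1:213714676-213714925 (minus) for Flrt1.
Crkl: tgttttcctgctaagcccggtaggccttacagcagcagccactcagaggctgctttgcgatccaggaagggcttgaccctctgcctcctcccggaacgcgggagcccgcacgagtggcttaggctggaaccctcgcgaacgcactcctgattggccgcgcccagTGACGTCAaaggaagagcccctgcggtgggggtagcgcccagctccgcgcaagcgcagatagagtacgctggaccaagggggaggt
Mrrf: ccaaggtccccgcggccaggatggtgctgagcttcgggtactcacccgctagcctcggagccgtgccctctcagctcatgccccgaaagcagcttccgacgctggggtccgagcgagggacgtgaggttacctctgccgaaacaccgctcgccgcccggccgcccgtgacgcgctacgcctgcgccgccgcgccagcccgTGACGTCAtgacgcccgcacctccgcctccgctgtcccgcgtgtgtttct
Mapkapk2: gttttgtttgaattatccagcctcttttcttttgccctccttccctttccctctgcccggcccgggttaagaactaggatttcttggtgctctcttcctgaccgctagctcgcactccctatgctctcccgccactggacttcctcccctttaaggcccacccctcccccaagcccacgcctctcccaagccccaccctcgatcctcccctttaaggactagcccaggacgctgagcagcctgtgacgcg
Flrt1: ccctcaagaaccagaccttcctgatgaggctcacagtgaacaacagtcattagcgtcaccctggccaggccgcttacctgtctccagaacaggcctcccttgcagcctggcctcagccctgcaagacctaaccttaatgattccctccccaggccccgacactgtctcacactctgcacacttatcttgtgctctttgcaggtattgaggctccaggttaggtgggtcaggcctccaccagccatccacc
The element ends 78 bases before the start site in Crkl and 42 bases before it in Mrrf. Rises and falls differed in base composition, with a median GC content of 61.2% and 58.8% against 59.6% for all promoters, and a median of 19, 14 and 15 CpG pairs.

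Among called falls of 2-fold or more, Adam33 and Flrt1 had the smallest adjusted p-values. Adam33, a membrane metalloprotease expressed in mesenchymal cells, was at 24.8, 32.8 and 21.6 CPM in saline, 16.6, 19.5 and 19.1 CPM with Ang II alone and 7.96, 8.56 and 6.78 CPM with NaBu (-1.77, SE 0.17, adjusted p = 0.00504 with edgeR). Flrt1, a transmembrane protein that binds FGF receptors, was at 102, 105 and 72.7 CPM in saline, 104, 82.1 and 88.7 CPM with Ang II alone and 32.5, 28.7 and 22.3 CPM with NaBu (-1.74, SE 0.179, adjusted p = 0.00665). In both genes every NaBu library lay below the other 6; Adam33 was called in 20 and Flrt1 in 19 of 20 alternative fits. They were at -1.57 and -1.63 without saline replicate 2.

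Adamtsl2, a secreted protein of fibrillin microfibrils, had a different pattern across the 3 groups. It was at 17.8, 31.5 and 22.5 CPM in saline, 8.94, 10.2 and 6.98 CPM with Ang II alone and 7.91, 7.46 and 10.3 CPM with NaBu (-1.48, SE 0.23, adjusted p = 0.0156 with edgeR). Its saline libraries were the high ones, and both treated groups overlapped. Ang II against saline was at -1.46 with the same SE of 0.23 (adjusted p = 0.408 with edgeR, set within that contrast). Col11a2, a chain of fibril-forming type XI collagen, instead was at 6.51, 12 and 5.66 CPM in saline, 9.64, 8.27 and 9.47 CPM with Ang II and 2.43, 2.96 and 1.96 CPM with NaBu (-1.72, SE 0.29), low in the NaBu libraries alone. It was at -1.30 without saline replicate 2.

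The other large falls were of Plekha6 (-1.53), with 98.3, 102 and 106 CPM in saline and 32, 39.8 and 34 CPM with NaBu, the unconventional myosin Myo7b (-1.71), the methyltransferase Setd4 (-1.33), the cholesterol-esterifying plasma enzyme Lcat (-1.32), the spectrin Sptbn5 (-1.25), Sec16b (-1.20, -0.76 without saline replicate 2), which organises exit sites of the endoplasmic reticulum, and Adam11 (-1.19). Their adjusted p-values in edgeR lay between 0.0123 and 0.0376. Calls of Setd4, Sptbn5 and Adam11 were lost without saline replicate 2 (adjusted p from 0.0531 to 0.0826). Bmp10, a BMP ligand made by atrial cardiomyocytes, had the largest fitted fall (-9.97), from 0.42, 646 and 22.2 CPM in saline replicates 1, 2 and 3 to 0 counts, 0.419 and 0.229 CPM in NaBu replicates 2, 4 and 6. It rested on saline replicate 2 and was not called without it (-5.65, adjusted p = 0.0537).

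**Figure D2:**
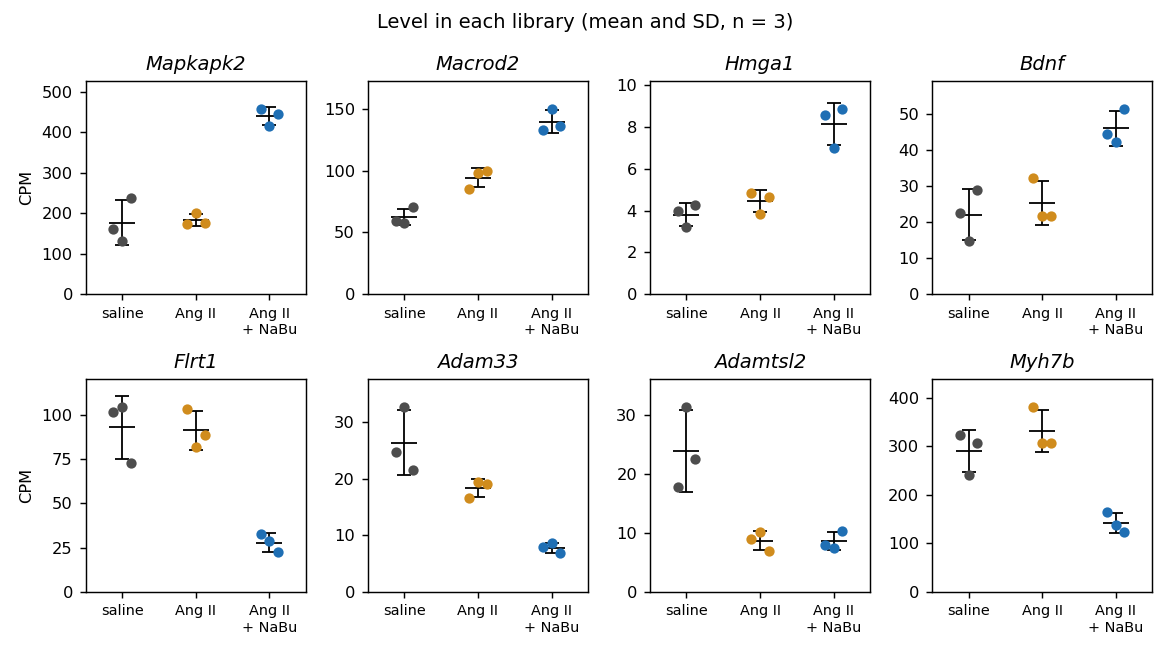
Level in CPM of 4 genes that rose (top row) and 4 that fell (bottom row) in each library, with the mean and SD of 3 libraries per group. The NaBu libraries stand apart from both other groups in Mapkapk2, Macrod2, Hmga1, Bdnf, Flrt1, Adam33 and Myh7b, and overlap with Ang II alone in Adamtsl2.

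The 36 pathway lists held 808 distinct genes that were tested, of which 65 rose (8.04%) and 11 fell (1.36%), against 3.01% and 2.05% of all genes. Their median log2 difference was 0.13, against -0.05 for all genes. Lists and members were chosen with earlier results of these data known. Their distance from all genes may follow from that choice and is no test of the lists. Called rises as a whole were of genes with a median of 52.1 CPM in saline and falls of 27.3 CPM, against 14.2 CPM for all genes tested. Without saline replicate 2, 47 list members rose and 10 fell; without NaBu replicate 2, and without NaBu replicate 6, 1 rose and 0 fell (Crkl). The medians moved less than the calls did: over those 3 fits the median of the 808 genes was between 0.11 and 0.16. With ribosomal RNA genes removed and total-count scaling, where the median of all genes was -0.20, 42 list members rose and 29 fell, and their median was -0.01.

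Genes that feed and run the citrate cycle were the list with the highest median. All 23 members tested averaged higher with NaBu than in saline, the median log2 difference was 0.55, 20 had no overlap between the groups (14.5% of all genes) and 5 rose. At an unadjusted p under 0.05, which 24.6% of all genes reached, 18 were higher and 0 lower, and DESeq2 called 18. Pdha1, the catalytic alpha subunit of pyruvate dehydrogenase, was at 673, 494 and 746 CPM in saline, 646, 726 and 706 CPM with Ang II alone and 1198, 1022 and 1161 CPM with NaBu (0.82, SE 0.15, adjusted p = 0.0226 with edgeR). Pdk1, a kinase that inhibits that enzyme, was at 438, 243 and 442 CPM in saline and 693, 664 and 748 CPM with NaBu (0.91, SE 0.201). Pdp1, the phosphatase that reactivates it, was at 72.2, 63.4 and 81.9 and 123, 105 and 122 CPM (0.69, SE 0.118). The enzyme, its inhibiting kinase and its activating phosphatase were thus all higher in each NaBu library than in any saline library, as all called rises were. Dlat, the acetyltransferase subunit, rose by 0.70, and Idh3a, the catalytic subunit of isocitrate dehydrogenase, by 0.58. The smallest differences in the list were of fumarase, Fh (0.25), and the succinate-CoA ligase subunit Suclg1 (0.30), neither called, at 0.07 and 0.13 without saline replicate 2. Without saline replicate 2 the median was 0.40 and 3 rose, with Dlat and Idh3a lost (adjusted p = 0.0625 and 0.0622).

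Branched-chain amino acid breakdown showed the same direction in each of its 18 members tested, with a median of 0.40 and 4 rises. Hibadh, which oxidises the valine intermediate 3-hydroxyisobutyrate, was at 164, 104 and 168 CPM in saline and 271, 267 and 302 CPM with NaBu (0.95, SE 0.18, adjusted p = 0.0256 with edgeR). Ppm1k, the phosphatase that activates the branched-chain ketoacid dehydrogenase, was at 173, 111 and 145 and 245, 236 and 244 CPM (0.75, SE 0.147). Dbt, a core subunit of that dehydrogenase, rose by 0.74, and Aldh6a1, which acts downstream on valine and thymine products, by 0.91. These 4 were called without saline replicate 2 as well, at 0.77, 0.61, 0.62 and 0.75, where the list median was 0.31. None of the 4 was called when any 1 NaBu library was left out. The Ang II means were 158, 184, 90.8 and 504 CPM, against 145, 143, 74.4 and 423 CPM in saline.

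Of 28 fatty acid oxidation genes tested, 27 averaged higher, with a median of 0.47, 4 rose and 0 fell. Acot2, a mitochondrial thioesterase that releases free fatty acids from acyl-CoA, was at 143, 95.6 and 117 CPM in saline and 231, 215 and 222 CPM with NaBu (0.91, SE 0.163). Ucp3, an uncoupling protein of the inner mitochondrial membrane, was at 11.7, 11.3 and 11.3 CPM in saline, 11.1, 15.6 and 15.2 CPM with Ang II alone and 20.7, 20.8 and 19.2 CPM with NaBu (0.82, SE 0.14). Its 3 saline libraries were close together, saline replicate 2 included. Etfdh, which passes electrons from fatty acid oxidation to ubiquinone, rose by 0.88, and Acadvl, the very long-chain acyl-CoA dehydrogenase, by 0.59. Acsl1, which activates long-chain fatty acids, had a larger difference, 0.97 (SE 0.315), that was not called (adjusted p = 0.0955 with edgeR). Cpt1a, a carnitine palmitoyltransferase, was at 0.11 (SE 0.131) and the acetyl-CoA carboxylase Acacb at -0.05 (SE 0.0969). Without saline replicate 2 the list median was 0.33 and the count of rises 4, though Acadvl was not among them (adjusted p = 0.0511).

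Respiratory chain and mitochondrial translation genes had lower medians. Of 42 oxidative phosphorylation genes, 38 averaged higher, 3 rose and 0 fell, and the median of 0.38 was 0.19 without saline replicate 2. The rises were of cytochrome c, Cycs (0.83, SE 0.198), the iron-sulphur subunit of complex III, Uqcrfs1 (0.80, SE 0.194), and the complex IV subunit Cox6c (0.75, SE 0.161). Cycs was at 468, 289 and 491 CPM in saline and 692, 688 and 842 CPM with NaBu, lowest in saline replicate 2. The call of Uqcrfs1 was lost without that library (adjusted p = 0.0656 with edgeR). Of 32 mitochondrial ribosomal protein genes, 31 averaged higher (median 0.38) and Mrpl3 (0.83), Mrps14 (0.72), Mrpl44 (0.68) and Mrps35 (0.53) rose; without saline replicate 2 the median was 0.26 and Mrps14 and Mrps35 were not called. For comparison, 36 cytosolic ribosomal protein genes had a median of 0.07, which was -0.07 with ribosomal RNA genes removed and total-count scaling, and 2 rises, Rpl7 (0.51) and Rpl13 (0.48), whose reads near-identical pseudogenes could share; Rpl13 was not called without saline replicate 2 (adjusted p = 0.0565 with edgeR).

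Of 20 regulators of mitochondrial number and shape, 3 rose. Dnm1l, the GTPase that divides mitochondria, was at 159, 128 and 149 CPM in saline and 235, 217 and 240.2 CPM with NaBu (0.66, SE 0.12, adjusted p = 0.0218 with edgeR). Tfam, which packages and transcribes mitochondrial DNA, rose by 0.59, and Tfb2m, the transcription factor that works with it, by 0.57; Tfam was not called without saline replicate 2 (adjusted p = 0.0591). Perm1, a muscle regulator of oxidative genes, was at 0.66 and the transcription factor Nrf1 at -0.35, with neither called.

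**Figure D3:**
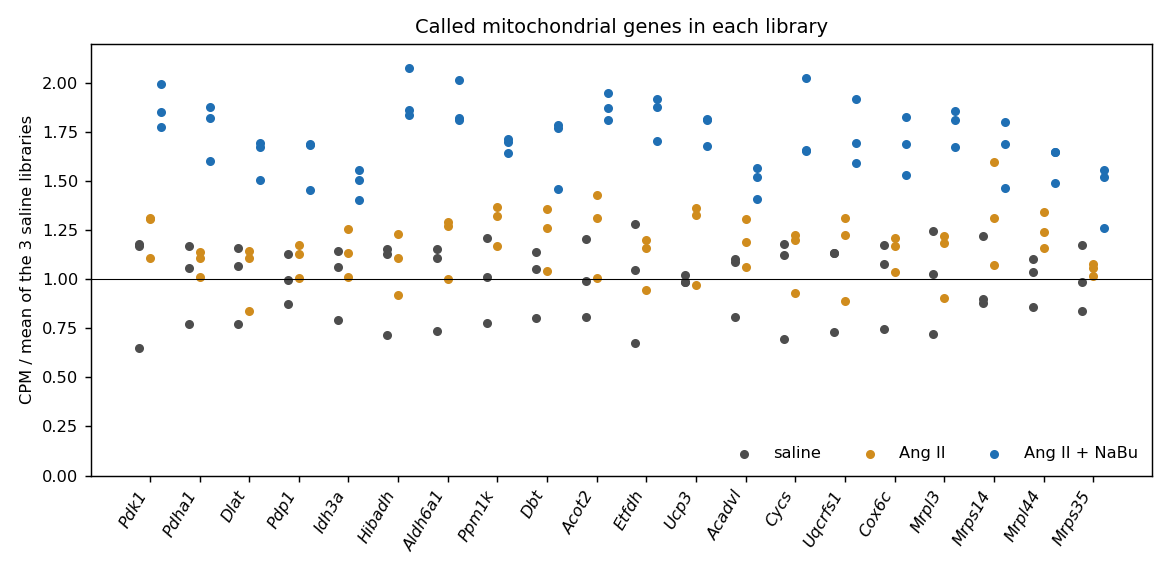
CPM of 20 called mitochondrial genes in each library, divided by the mean of the 3 saline libraries. In each gene the 3 NaBu points (blue) lie above the 3 saline points (grey). That holds for all 465 called rises and so follows from the choice of genes. Of 60 Ang II points (orange), 27 lie above the highest saline point and 59 below the lowest NaBu point. Choosing genes that are high in the NaBu libraries also favours Ang II points below them, so the 59 is no separate result. Saline replicate 2 is often the lowest saline point.

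Other fuel lists held fewer calls. Of 16 glycogen genes, 14 averaged higher (median 0.39) and 2 rose, the branching enzyme Gbe1 (74.8, 57.4 and 68.2 CPM in saline, 108, 104 and 106 CPM with NaBu, 0.66) and Ppp1r3d (0.51), a subunit that brings protein phosphatase 1 to glycogen. Of 21 glycolysis genes 18 averaged higher, with a median of 0.20 (0.08 without saline replicate 2) and 0 called in edgeR, 6 at an unadjusted p under 0.05 and 4 in DESeq2. Of 12 genes for the transport and use of butyrate and ketone bodies 8 averaged higher. The list median was 0.40 (0.25 without saline replicate 2), and 0 were called in edgeR. At an unadjusted p under 0.05, 5 were higher and 1 lower, Slc16a3 (-0.71). In DESeq2 5 rose and 0 fell. Oxct1, which activates ketone bodies for oxidation, was at 0.70 (SE 0.231) and the monocarboxylate transporter Slc16a1 at 0.65 (SE 0.262), without overlap between the groups but with adjusted p-values of 0.101 and 0.161. They were at 0.44 and 0.37 without saline replicate 2, where Oxct1 was called (adjusted p = 0.049 with edgeR). Among lipid storage genes the acyl-CoA synthetase Acsf2 rose (174, 130.4 and 198 CPM in saline, 327, 279 and 316 CPM with NaBu, 0.88) and Lcat fell.

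Of 24 sarcomere genes tested, 2 rose, 1 fell and 20 averaged higher (median 0.34, 0.15 without saline replicate 2). Desmin, Des, the intermediate filament that ties sarcomeres together, was at 1548, 1191 and 1849 CPM in saline and 2460.0, 2287 and 2465 CPM with NaBu (0.65, SE 0.156). Smpx, a small muscle protein of the costamere, was at 139.6, 161 and 135 and 227, 199 and 230.0 CPM (0.59, SE 0.11). Myh7b, a slow myosin heavy chain whose intron holds a microRNA, fell from 323, 241 and 307 CPM in saline to 165, 137 and 122 CPM with NaBu (-1.03, SE 0.155, adjusted p = 0.0149 with edgeR), and its Ang II libraries were at 382, 306 and 307 CPM. The main ventricular myosin heavy chains were not called: Myh6 was at -0.04 (SE 0.116) and Myh7 at 0.32 (SE 0.319; -0.01 without saline replicate 2). Myh7 stood at 12465, 5006 and 16027 CPM in the saline libraries, lowest in replicate 2, and at 13850.0, 14204 and 13895 CPM with NaBu.

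Of 20 calcium handling genes 4 rose and 0 fell. Phospholamban, Pln, the inhibitor of the sarcoplasmic reticulum calcium pump, was at 3054, 1877 and 2912 CPM in saline, 3107, 3603 and 3420.0 CPM with Ang II alone and 4588, 4435 and 4943 CPM with NaBu (0.83, SE 0.171, adjusted p = 0.0305 with edgeR). Every NaBu library was above every other library. Asph, whose locus encodes junctin and an aspartyl hydroxylase, rose by 0.63, the calcium channel subunit Cacna2d1 by 0.57 and the calcium-binding protein S100a1 by 0.52, the last not called without saline replicate 2 (adjusted p = 0.0822). Itpr1, an IP3 receptor, was at -0.67 (SE 0.178, adjusted p = 0.0557); without saline replicate 2 it was at -0.38 and called (adjusted p = 0.049 with edgeR). Protein kinase A, which phosphorylates phospholamban, had 3 rises among 22 adrenergic and kinase A genes: the regulatory subunits Prkar2a (0.74) and Prkar1a (0.41) and the catalytic subunit Prkacb (0.43). Without saline replicate 2 only Prkar2a of these 3 was called. Of 20 ion channel genes 0 were called in edgeR. At an unadjusted p under 0.05, which 24.6% of all genes reached in either direction, 4 were higher and 2 lower. In DESeq2, with 1240 rises and 767 falls among 15467 genes, 2 of the list rose and 1 fell. Kcnd3, a transient outward potassium channel, was at -0.80 (adjusted p = 0.0631 with edgeR) and at -0.47 without saline replicate 2.

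The natriuretic peptides and other stress genes of the fetal programme did not share a direction. Nppb, the B-type peptide, was at 159, 126 and 135 CPM in saline, 125, 99.9 and 137 CPM with Ang II alone and 175, 192 and 221 CPM with NaBu. The NaBu libraries were above the others, but the difference from saline, 0.49 (SE 0.145), was not called (adjusted p = 0.0755 with edgeR). Nppa, the atrial peptide, was at 55.4, 3464 and 186 CPM in saline replicates 1, 2 and 3 and at 80.6, 69.5 and 47.7 CPM with NaBu; the groups overlapped and saline replicate 2 set the fitted difference of -4.23 (adjusted p = 0.071), which was -0.85 without it. Of 18 genes of that list 14 averaged higher, with a median of 0.22 (0.12 without saline replicate 2), and Mapkapk2 was the 1 that rose.

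The list of 18 HDAC and sirtuin genes, not all of which encode targets of butyrate, had a median difference of 0.01. Of these, 9 averaged higher and 9 lower, and 0 were called in edgeR. The median was -0.13 with ribosomal RNA genes removed and total-count scaling. At an unadjusted p under 0.05, which 24.6% of all genes reached in either direction, 4 were lower. In DESeq2, where 767 of 15467 genes fell, 2 of the list fell. Hdac5 was at 74.5, 76 and 65.8 CPM in saline and 69.3, 72.2 and 69.5 CPM with NaBu (-0.04, SE 0.0887), with overlap. Hdac6 was listed at 0 in saline replicates 1 and 2 and in NaBu replicate 2, and so gives no usable comparison. Of 15 histone acetyltransferases and acetyl readers 10 averaged lower, with a median of -0.06; Kat2a was at -0.40, lower without overlap and not called. In this list 2 genes rose: Hat1, which acetylates new histone H4, was at 13.4, 18.1 and 15 CPM in saline and 22.9, 23.5 and 23 CPM with NaBu (0.58, SE 0.124), and Kat2b, which encodes PCAF, rose by 0.58. Both were called without saline replicate 2, and neither when any 1 NaBu library was left out. Of 14 genes for histone variants and high mobility group proteins, Hmga1 and Hmgn2 rose. Hmgn2, a nucleosome-binding protein, was at 86.3, 96.4 and 98.8 CPM in saline, 109, 106 and 99.4 CPM with Ang II alone and 169, 153 and 149.5 CPM with NaBu (0.74, SE 0.0951, adjusted p = 0.0128 with edgeR).

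Protein turnover genes mostly averaged higher. Of 31 proteasome genes 28 averaged higher, with a median of 0.26; the lid and base subunits Psmd8 (0.68) and Psmd1 (0.52) and the core subunits Psma6 (0.50) and Psmb1 (0.47) rose. Only Psmd1 was called without saline replicate 2, where the median was 0.19. Of 22 heat shock genes 17 averaged higher (median 0.34), and the constitutive chaperone Hspa8 (749, 658 and 817 CPM in saline, 1013, 1052 and 1078 CPM with NaBu, 0.50) and the mitochondrial co-chaperonin Hspe1 (0.53) rose, the latter not called without saline replicate 2 (adjusted p = 0.0634 with edgeR). The stress-induced Hspa1a was at -0.55 (SE 0.44; -0.21 without that library). Among 24 endoplasmic reticulum stress genes the lectin chaperone Canx (0.45) and Herpud1 (0.43) rose, the latter not called without saline replicate 2 (adjusted p = 0.0749 with edgeR). The list median was 0.09, and -0.06 with ribosomal RNA genes removed and total-count scaling.

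Of 25 autophagy genes 3 rose and 1 fell. Bnip3, a mitophagy receptor of the outer mitochondrial membrane, was at 115, 84.2 and 97 CPM in saline and 159, 187 and 197 CPM with NaBu (0.88, SE 0.158). The initiating kinase Ulk1 rose by 0.50 and Gabarap, which coats autophagosomes, by 0.42. Atg7, the enzyme that activates ATG8 proteins such as Gabarap, fell by 0.59 on the log2 scale, from 21.9, 22.5 and 21 to 15.3, 16.5 and 11.9 CPM, a call lost without saline replicate 2 (adjusted p = 0.0864 with edgeR). In the atrophy list Foxo4, Sesn1 and the mitochondrial ubiquitin ligase Mul1 rose, by 0.53, 0.41 and 0.41, and none of the 3 was called without saline replicate 2. Of 28 antioxidant genes the glutathione peroxidase Gpx1 (0.78), the peroxiredoxin Prdx1 (0.52) and the thioredoxin reductase Txnrd1 (0.38) rose, each lost without that library. Gpx1 and Prdx1 were also lost when any 1 NaBu library was left out, and Txnrd1 in all 9 fits that left out 1 library. The mitochondrial superoxide dismutase Sod2 was at 0.74 (adjusted p = 0.0557).

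**Figure D4:**
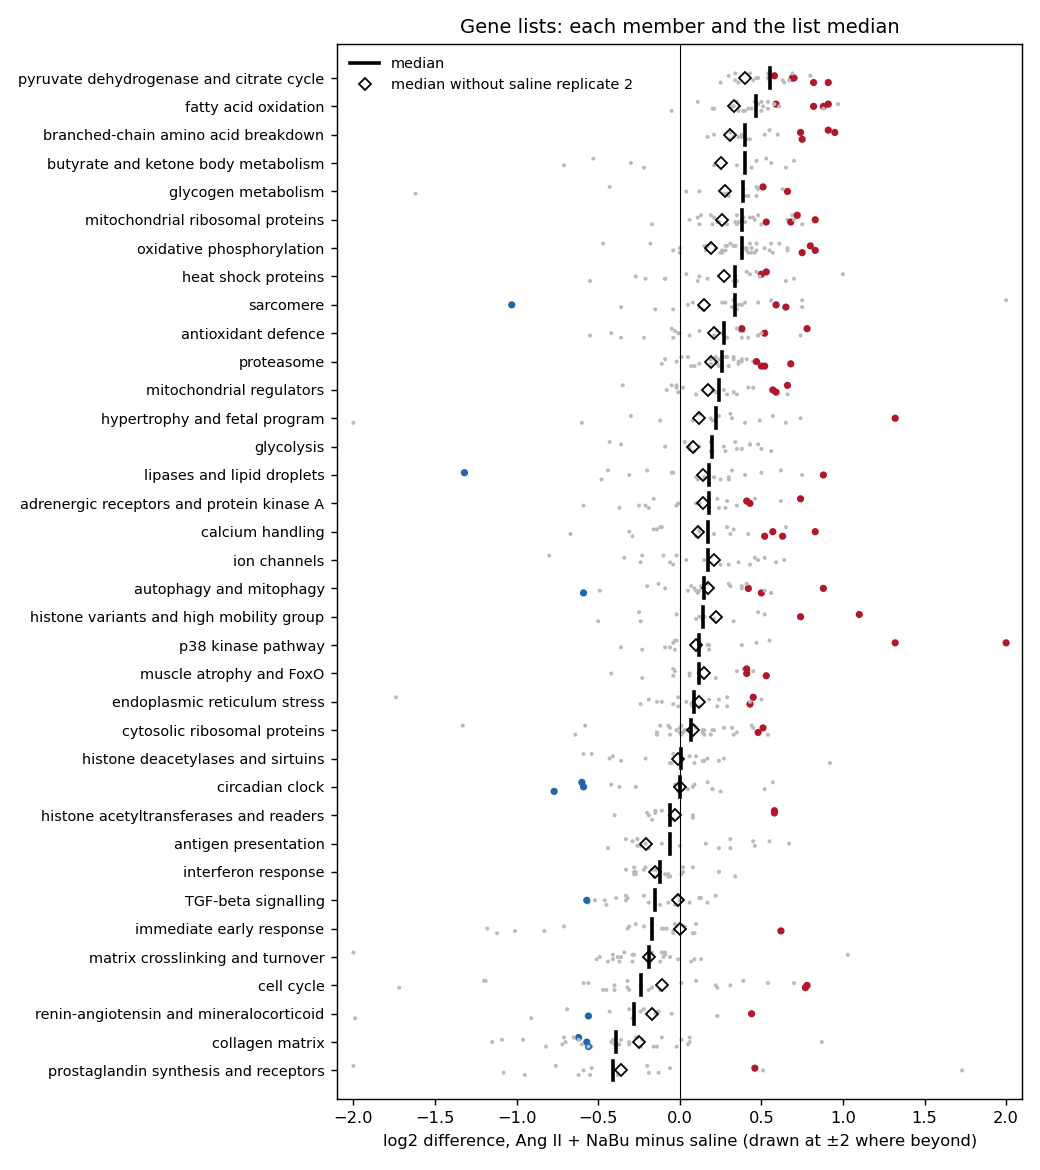
Each row is a pathway list, each point a member placed at its log2 difference (red rose, blue fell, grey not called), with a bar at the list median and a diamond at the median without saline replicate 2. Medians run from -0.41 for prostaglandin genes to 0.55 for pyruvate dehydrogenase and citrate cycle genes, and most diamonds lie closer to 0 than the bars.

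Matrix genes lay on the lower side. Of 36 collagen matrix genes 31 averaged lower with NaBu than in saline, against 55.3% of all genes, with a median of -0.39, 3 falls and 0 rises. Col14a1, a collagen on the surface of fibrils, was at 140.0, 183 and 174 CPM in saline, 112, 114 and 97.9 CPM with Ang II alone and 107, 112 and 105 CPM with NaBu (-0.62, SE 0.116, adjusted p = 0.0248 with edgeR). Fbn1, the main protein of microfibrils, was at 457, 506 and 568, 365, 319 and 296 and 364, 378 and 300.1 CPM in the same order (-0.56), and Fbln2, an elastic fibre protein, at 58.5, 58.2 and 76.7, 41.6, 46 and 40.9 and 38.8, 49.9 and 41.1 CPM (-0.57). In these 3 genes saline was the high group and the Ang II and NaBu libraries overlapped. Fbn1 and Fbln2 were not called in any of the 9 fits that left out 1 library. Without saline replicate 2 the list median was -0.25 and Col14a1 was the 1 fall; with saline replicate 1 as the only saline library the median was 0.12.

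Col1a1 and Col3a1, the main fibrillar collagen genes of the heart, were not called. Col1a1 was at 325, 542 and 645 CPM in saline, 280.3, 328 and 313 CPM with Ang II alone and 323, 408 and 311 CPM with NaBu (-0.54, SE 0.218, adjusted p = 0.164 with edgeR). Col3a1 was at 1078, 1956 and 1539 CPM in saline and 1266, 1388 and 1035 CPM with NaBu (-0.31, SE 0.194, -0.07 without saline replicate 2). For both, saline replicate 1 was near the NaBu libraries and saline replicates 2 and 3 were higher. Periostin, Postn, a matricellular protein of activated fibroblasts, was at 13.2, 14.8 and 91.7 CPM in saline, with replicate 3 the high library, and 11.4, 39.6 and 22.2 CPM with NaBu (-0.70, SE 0.677, -1.08 without saline replicate 2). Ctgf, a matricellular target of TGF-beta, was at -0.12 (SE 0.147; 0.02 without that library) and smooth muscle actin, Acta2, which marks myofibroblasts, at -0.87 (SE 0.355), with saline replicate 2 its high library (219 CPM) and a difference of -0.26 without it. Of 27 crosslinking and turnover genes 23 averaged lower (median -0.19) with 0 called in edgeR. At an unadjusted p under 0.05, which 24.6% of all genes reached in either direction, 8 were lower. In DESeq2, where 767 of 15467 genes fell, 2 of the list fell. Of 23 TGF-beta genes Ltbp3, which holds latent TGF-beta in the matrix, fell (59.9, 86.3 and 84.9 CPM in saline, 50.3, 55.4 and 49.8 CPM with NaBu, -0.57), a call lost without saline replicate 2 (adjusted p = 0.095), and Tgfb1 itself was at -0.02 (SE 0.148).

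Of 19 circadian clock genes, 3 fell and 0 rose. Per3, a repressor arm component, was at 66.2, 68.2 and 53.4 CPM in saline, 67.2, 54.4 and 62 CPM with Ang II alone and 42.6, 38.2 and 29.7 CPM with NaBu (-0.77, SE 0.151, adjusted p = 0.0278 with edgeR). Per2, its close relative, was at 33.9, 40.1 and 30.1, 37.7, 33.3 and 28.8 and 23.8, 23.3 and 21.8 CPM (-0.60, SE 0.133), and Npas2, a partner of Bmal1, at 23.7, 31.6 and 28, 25.1, 21.9 and 23.1 and 20.3, 17.3 and 17.9 CPM (-0.59, SE 0.127). The NaBu libraries were the lowest 3 of 9 in each. Calls of the 3 were lost without saline replicate 2 (adjusted p = 0.0523, 0.0737 and 0.0709), and the list median was 0.00. The labels give no hour of sampling.

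Of 27 cell cycle genes 17 averaged lower, with a median of -0.24 (-0.11 without saline replicate 2); cyclin D2, Ccnd2 (0.77), and Cks1b (0.78), a subunit of cyclin-dependent kinases, rose, while Mki67, which marks dividing cells, was at -0.47 (SE 0.236) and Cdk1 at -1.19 (SE 0.651). Of 23 immediate early genes Ier3 rose (0.62; adjusted p = 0.0687 with edgeR without saline replicate 2), and Fos was at -1.12 (SE 0.45) and Nr4a1 at -1.18 (SE 0.36). Both were highest in saline replicate 2 among the saline libraries, and at -0.29 and -0.51 without it.

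Within the renin-angiotensin list of 15 genes, 13 averaged lower. Ace, the enzyme that makes Ang II, fell from 18.2, 25.5 and 23 CPM in saline to 16.3, 14.9 and 14 CPM with NaBu (-0.56, SE 0.141, adjusted p = 0.0499 with edgeR), and its Ang II libraries were at 15.4, 17 and 18.1 CPM. It was not called without saline replicate 2 (-0.44). Lnpep, an aminopeptidase that binds angiotensin IV, rose by 0.44. Angiotensinogen, Agt, was at -1.99 (SE 0.566, adjusted p = 0.0676; -1.28 without saline replicate 2) at a mean of 2.27 CPM in saline and 0.571 CPM with NaBu. Of 17 prostaglandin genes Ptges3 rose (0.46), the constitutive cyclooxygenase Ptgs1 was at -0.95 (adjusted p = 0.0758), and the inducible Ptgs2 at -1.08 (SE 0.577; -0.45 without saline replicate 2) with 0.69, 4.47 and 2.77 CPM in saline and 1.01, 1.55 and 1.19 CPM with NaBu, which overlapped.

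The immune lists held 0 calls in edgeR. The 24 interferon response genes had a median of -0.12. At an unadjusted p under 0.05, 1 was higher and 3 were lower, and DESeq2 called 0. The 18 antigen presentation genes had a median of -0.06 (-0.21 without saline replicate 2). At that p 4 were higher and 0 lower, and in DESeq2 2 rose and 0 fell. Cd74, the invariant chain of MHC class II, was at 0.55 (SE 0.167, adjusted p = 0.0793 with edgeR). Macrophage and lymphocyte marker lists had medians of -0.24 and -0.24, and -0.15 and 0.06 without saline replicate 2, with 3 and 0 at an unadjusted p under 0.05 and 0 in DESeq2. In bulk tissue, fewer cells of a type and less RNA per cell cannot be told apart.

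Markers of other cell types moved with the groups as follows. Of 16 fibroblast markers 14 averaged lower (median -0.37, 0 called in edgeR). At an unadjusted p under 0.05, which 24.6% of all genes reached in either direction, 5 were lower. In DESeq2, where 767 of 15467 genes fell, 2 of the list fell. The 16 markers summed to 3443, 5194 and 4175 CPM in saline and 3486, 3862 and 3369 CPM with NaBu, and their median was -0.23 without saline replicate 2. Their part in the matrix values was not tested. Of 15 endothelial markers 14 averaged lower (median -0.15, -0.16 without saline replicate 2), and Egfl7, a secreted endothelial protein whose intron holds a microRNA, fell from 104, 92.4 and 97.5 CPM in saline to 67.3, 66.2 and 66 CPM with NaBu (-0.56, SE 0.0842, adjusted p = 0.0149); with Ang II alone it was at 98, 104 and 103 CPM. The other endothelial markers were not called, and Flt1 and Vwf were at -0.03 and -0.47. Vwf was highest in saline replicate 2 and at 0.17 without it. All 8 pericyte markers averaged lower (median -0.17). Myofibroblast and smooth muscle markers had a median of -0.66, which was -0.07 without saline replicate 2, epicardial markers -1.98 and -0.23, and nerve markers -0.58 and 0.09. Neutrophil, mast cell and platelet markers had a median of -0.81 over 11 genes tested and 3 adipocyte markers -1.04, which were -0.33 and -0.07 without saline replicate 2. In edgeR 0 of either were called, with 3 and 1 at an unadjusted p under 0.05 and 0 and 1 in DESeq2. Among 11 ventricular markers the repressor Hey2 rose (11.7, 11.1 and 13 CPM in saline, 20.6, 19.1 and 24.5 CPM with NaBu, 0.85), with a list median of 0.12 that was 0.04 without saline replicate 2 and -0.02 with ribosomal RNA genes removed and total-count scaling. Among 13 erythroid markers the anion exchanger Slc4a1 rose (0.67; 0.55 and adjusted p = 0.0669 with edgeR without saline replicate 2), with Ang II alone overlapping (36.6, 36 and 44.7 CPM against 37.4, 34.6 and 39.9 CPM with NaBu and 22.8, 18.9 and 28.9 CPM in saline). The part of ventricular or other cell markers in the rise of mitochondrial genes was not tested; without the saline library richest in atrial markers the citrate cycle, branched-chain amino acid and fatty acid oxidation medians were 0.40, 0.31 and 0.33.

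**Figure D5:**
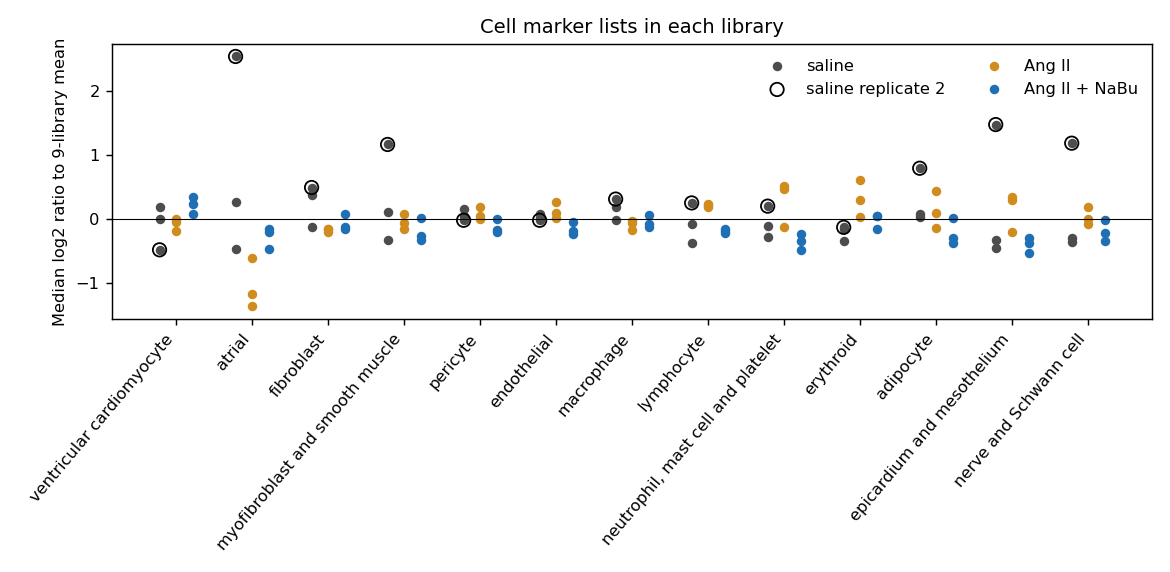
For 13 cell marker lists, each point is a library, placed at the median over the list's genes of the log2 ratio to the mean of the 9 libraries; open circles mark saline replicate 2. That library is the highest of 9 in atrial, fibroblast, smooth muscle, macrophage, lymphocyte, adipocyte, epicardial and nerve markers and the lowest in ventricular markers.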

How the data were processed

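Left ventricle RNA (Trizol, DNase I) was sequenced from TruSeq RNA libraries, per the labels' protocols. The authors deposited 1 table of estimated counts for each group, with 55767 transcripts; the saline table is of the same kind with another line end inside its last column, stripped on reading. All values were whole, and 1 fragment was worth about 4 counts. Bowtie 0.12.2 and the build mm8 are named in the submitters' processing notes; mm8 is a mouse build and the transcripts are rat RefSeq ones. How transcripts were counted, with which annotation and whether by strand, is not given in the sources used here. Reads that paralogs or antisense genes share are therefore uncertain.

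Counts were summed by gene name (22608 genes) and fitted in edgeR 4.0.16 (R 4.3.3; quasi-likelihood, TMM factors 0.887 to 1.14, filterByExpr, 3 groups, common biological coefficient of variation 0.256), tested on simulated data beforehand. SE is the log2 difference divided by the root of its F statistic. DESeq2 1.42.0, other scalings, filters and left-out libraries were alternatives. Named genes are the 12 largest differences per direction among called genes without overlap between the groups, at a mean of 5 CPM or more in the higher group and with a descriptive symbol, 15 set genes, and from each of 49 lists the called members and up to 2 at each end with a mean of 1 CPM or more; 1 of the 12 rises is not reported here. Members and lists were chosen with earlier results of these data known. Promoters were matched by gene symbol or ID to RefSeq GRCr8.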

Additional observations from a re-analysis of the deposited data

How the results depend on the processing

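Against 465 rises and 317 falls, DESeq2 gave 1240 and 767, scaling by total count 287 and 124, the fit of saline and NaBu libraries only 5 and 4, and that fit without saline replicate 2 (chosen after seeing the data) 102 and 40. The highest transcript per gene in place of the sum gave 16 and 5, leaving out saline replicates 2 and 3 together 55 and 54, and removal of ribosomal RNA genes with total-count scaling (chosen after seeing the data) 238 and 686. Leaving out 1 library at a time gave 3 to 769 rises and 3 to 534 falls, with the lowest counts without NaBu replicate 6 and the highest without saline replicate 3. RLE size factors, upper-quartile scaling, no low-count filter and counts divided by 4 kept both counts within 1.5 times. With the highest transcript per gene the differences of Fbln2 (0.32), Ltbp3 (0.03), Per2 (2.33), Npas2 (0.31) and Prkacb (-0.05) had the opposite sign and none was called; 29 of the 782 called genes did so. Kcnj3, an atrial potassium channel at -0.23 and not called, was called at 0.73 without saline replicate 2 and at 0.72 when Ang II libraries were left out too, with a range of -0.56 to 0.73 over fits without 1 library. The cause was not tested in any of these. Fits that left libraries out had fewer of them to set the spread, and the part of that was not tested either. Of 980 list medians recomputed, 902 moved by no more than 1 SD between the libraries of a group, taking the larger of the saline and NaBu SDs. Saline replicate 2 widens that SD in lists where it stands apart. For nerve markers the median log2 ratios were -0.36, 1.18 and -0.3 in saline replicates 1, 2 and 3. The count of 902 therefore cannot show that such medians are stable. For 99 called named genes, 1039 of 1979 recomputed values kept the call and 935 kept the direction without it. No paired analysis was possible because the NaBu columns carry the numbers 2, 4 and 6, of which 1 is shared with saline. Counts of 12 or fewer limit what can be said of genes listed at 0.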

Other observations

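Some genes with the smallest adjusted p-values fall outside the naming rule and were chosen after their values were seen. Adamts7, a secreted metalloprotease, fell (log2 difference -0.80, SE 0.0842, adjusted p = 0.00665 with edgeR), with 69.5, 64.2 and 65.5 CPM in saline, 59.9, 61.1 and 59.6 CPM with Ang II alone and 37.4, 40.4 and 36.3 CPM with NaBu. Rnf207, a ubiquitin ligase linked to cardiac potassium channels, was at 104, 117 and 88.4 CPM in saline, 94.5, 95.3 and 102 CPM with Ang II alone and 49.6, 56.4 and 49.7 CPM with NaBu (-0.99, SE 0.115). Every NaBu library of both genes was below every saline library, as in all called falls. Yeats4, a reader of acylated histone lysines, was at 18.1, 18.6 and 20.2 CPM in saline, 21, 23.9 and 21.9 CPM with Ang II alone and 36, 31.5 and 35.9 CPM with NaBu (0.86, SE 0.103). Homer1, a scaffold of calcium signalling complexes, was at 65.7, 60.8 and 62.5, 70.2, 78.3 and 79.3 and 120.4, 102 and 107 CPM in the same order (0.80, SE 0.0979). Every NaBu library of these genes was above every saline library, as in all called rises.

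Besides Crkl, 6 genes were listed at 0 in the 3 saline libraries with at least 12 estimated counts in each NaBu library, and 2 showed the reverse. LOC498205 had 335, 320 and 379 counts in NaBu replicates 2, 4 and 6, at least 17.1-fold above the floor of 12 per library, and 339, 252 and 0 with Ang II alone. Ppp1r35 had 41, 40 and 40 counts with NaBu, and LOC100910581 had 42, 42 and 37; the near-equal counts of this pair may be shared reads, and both are uncertain. Mfsd14a had 343, 469 and 248 counts in saline, 0 in the 3 NaBu libraries and 0, 0 and 488 with Ang II alone, at least 29.1-fold lower with NaBu. Library and table cannot be told apart from the group in these genes. At transcript level 86 were at 0 in saline and 50 at 0 with NaBu by the same rule.

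Called genes also differed in length. By RefSeq's GRCr8 annotation the median span from start to end was 20.6 kb for rises (96.1% matched), 36.0 kb for falls (90.9%) and 24.3 kb for all genes tested (92.6%).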
